A study of Mus musculus with 28 samples.

Results

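The unfolded protein response genes described here were 10 genes, Xbp1, Hspa5, Herpud1, Pdia4, Dnajb9, Hsp90b1, Ddit3, Atf4, Atf6 and Sdf2l1, out of 19938 genes that had a probe set annotated with exactly 1 symbol. Where a gene had several such probe sets, the brightest on average was used. This applied to Pdia4 alone among the 10. All 10 genes passed the filter on dim genes, which left 10452 genes for testing. RNA of splenic dendritic cells from mice aged 3 months was measured on 28 one-colour Affymetrix arrays, to ask how oxidative stress bears on their expression profile. The wild-type groups, 4 in all, came from C57BL6/J mice: angiotensin II (Ang II) given together with the drugs hydralazine plus hydrochlorothiazide (Hyd/HCTZ, n = 6), Ang II with 2-hydroxybenzylamine (2-HOBA, n = 4), Ang II alone (n = 4) and vehicle (n = 7). The other 2 groups came from mice lacking NOX2, the gp91phox subunit of the phagocyte NADPH oxidase: Ang II (n = 4) and vehicle (n = 3). Blood pressure is raised by the hormone Ang II and lowered by Hyd/HCTZ, which pairs a vasodilator (hydralazine) and a diuretic (hydrochlorothiazide), whereas 2-HOBA scavenges reactive dicarbonyls. Every Hyd/HCTZ and 2-HOBA sample also received Ang II, and no group received either agent without it. Some knockout titles read Ang I where their descriptions read Ang II, and the descriptions were followed. The sources used here give no dose, duration or cell sorting method, and do not settle whether mice or isolated cells were treated.

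The unfolded protein response is the set of signals that the endoplasmic reticulum sends when unfolded proteins build up in it. The sensor IRE1 splices Xbp1 mRNA into the form that encodes the active transcription factor; the kinase PERK slows translation while favouring that of ATF4, which can induce CHOP, the product of Ddit3; and ATF6 is cut in the Golgi to release a factor that acts on chaperone genes. In dendritic cells, the IRE1-XBP1 branch is known to be active at rest and to matter for the upkeep of conventional type 1 cells. Each gene was read by 1 probe set, so spliced and unspliced Xbp1, phosphorylation of the sensors and cleavage of ATF6 were not measured. The grouping of genes by branch below follows common usage, and several of them respond to more than 1 branch.

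The promoters of 4 chaperone-branch genes are shown because these genes carry the contrast described below: Herpud1 and Hspa5 were higher with Hyd/HCTZ, Hsp90b1 was level on the scale as deposited, and Pdia4 was lower. Each runs 5′ to 3′ on the strand of its gene, from 250 bases before the start site to 50 bases after it, and is taken from RefSeq (GRCm38.p6), which held 9 of the 10 genes. The searched motifs were the endoplasmic reticulum stress element ERSE (CCAAT, any 9 bases, CCACG), ERSE-II (ATTGG, any 1 base, CCACG), the core of the unfolded protein response element UPRE (TGACGTGG) and CCACG, which ERSE and ERSE-II contain, all on both strands. Capitals mark ERSE in Hspa5 and Hsp90b1 and ERSE-II in Herpud1. The Herpud1 promoter is chr8:94386179-94386478 on the plus strand, that of Hspa5 chr2:34771840-34772139 on the plus strand, that of Hsp90b1 chr10:86705395-86705694 on the minus strand and that of Pdia4 chr6:47813463-47813762 on the minus strand.
Herpud1: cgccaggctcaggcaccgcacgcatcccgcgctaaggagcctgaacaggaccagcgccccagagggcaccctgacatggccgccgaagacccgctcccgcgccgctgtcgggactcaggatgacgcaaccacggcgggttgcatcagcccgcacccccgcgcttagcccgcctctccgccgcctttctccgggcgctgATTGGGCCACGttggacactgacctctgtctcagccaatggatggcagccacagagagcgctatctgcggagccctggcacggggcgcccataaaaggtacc
Hspa5: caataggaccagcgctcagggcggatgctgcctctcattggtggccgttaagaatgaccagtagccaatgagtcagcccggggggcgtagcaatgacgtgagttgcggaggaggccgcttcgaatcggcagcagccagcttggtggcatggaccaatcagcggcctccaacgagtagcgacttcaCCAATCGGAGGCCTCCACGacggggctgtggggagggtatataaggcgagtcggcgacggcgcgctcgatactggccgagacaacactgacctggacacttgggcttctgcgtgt
Hsp90b1: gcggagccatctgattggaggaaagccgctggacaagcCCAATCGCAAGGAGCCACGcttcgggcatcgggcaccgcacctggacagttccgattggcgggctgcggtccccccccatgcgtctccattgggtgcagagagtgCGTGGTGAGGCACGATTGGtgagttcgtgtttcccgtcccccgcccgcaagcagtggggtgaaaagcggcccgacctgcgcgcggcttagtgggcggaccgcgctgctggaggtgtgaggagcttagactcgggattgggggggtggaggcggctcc
Pdia4: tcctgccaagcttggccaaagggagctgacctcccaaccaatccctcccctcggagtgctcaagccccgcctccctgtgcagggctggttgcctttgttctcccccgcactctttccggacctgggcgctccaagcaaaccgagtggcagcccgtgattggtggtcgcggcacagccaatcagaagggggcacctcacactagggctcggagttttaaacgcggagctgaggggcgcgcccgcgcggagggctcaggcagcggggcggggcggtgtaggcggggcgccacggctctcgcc
Herpud1 held ERSE-II starting 52 bases before the start site, Hspa5 held ERSE 65 bases before it, and Hsp90b1 held ERSE 212 bases before it and, on the opposite strand, 107 bases before it. The 300 bases of Pdia4 held CCACG once and none of the longer motifs, and the windows of Xbp1, Dnajb9, Atf4, Ddit3 and Sdf2l1 held none of the 3 longer motifs either. Of 32851 promoters of the same length, 0.119% held ERSE, 0.0365% ERSE-II, 0.676% the UPRE core and 32.8% CCACG. A match of letters is a description of the sequence and does not show binding.

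Several facts of the whole set of arrays touch the values below. Levels are log2 values on the RMA scale, on which a difference of 1 is a 2-fold difference. With Hyd/HCTZ the median difference of all tested genes was 0.32 against Ang II, 0.25 against 2-HOBA and 0.31 against vehicle, so differences are also given relative to it and after quantile normalization. The share of called genes that were higher with Hyd/HCTZ than with Ang II was 77.4% as deposited and 48.6% relative to that median. It was 50% by quantile normalization and 82.1% when arrays were set to 1 median. The spread also differed: the interquartile range of an array was 3.09 to 3.44 with Hyd/HCTZ. It was 1.92 to 3.03 with wild-type vehicle and 2.43 to 2.84 in the other groups. Taking off a median does not remove a difference in spread. On the first principal component of 6612 probe sets treated as controls, the 28 arrays fell into 3 sets, and the 6 Hyd/HCTZ arrays formed a set of their own (48.24 to 58.68, other arrays -61.05 to 17.81), so Hyd/HCTZ and this array set cannot be told apart. The array labelled wild-type vehicle replicate 2 stood apart, with a mean correlation of 0.852 with the other arrays, and its Cybb (the gene of gp91phox) was 6.34, while the 7 knockout arrays read 6.41 to 7.18 and the 20 other wild-type arrays 8.35 to 9.75. Results that rest on it are given with and without it. All 10 dendritic cell markers averaged above 5 with Hyd/HCTZ, and 8 or 9 of 10 did in each other group, where Clec4a4 or Xcr1 did not. In such bulk samples, fewer cells of a type and less RNA per cell cannot be told apart.

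**Figure D1:**
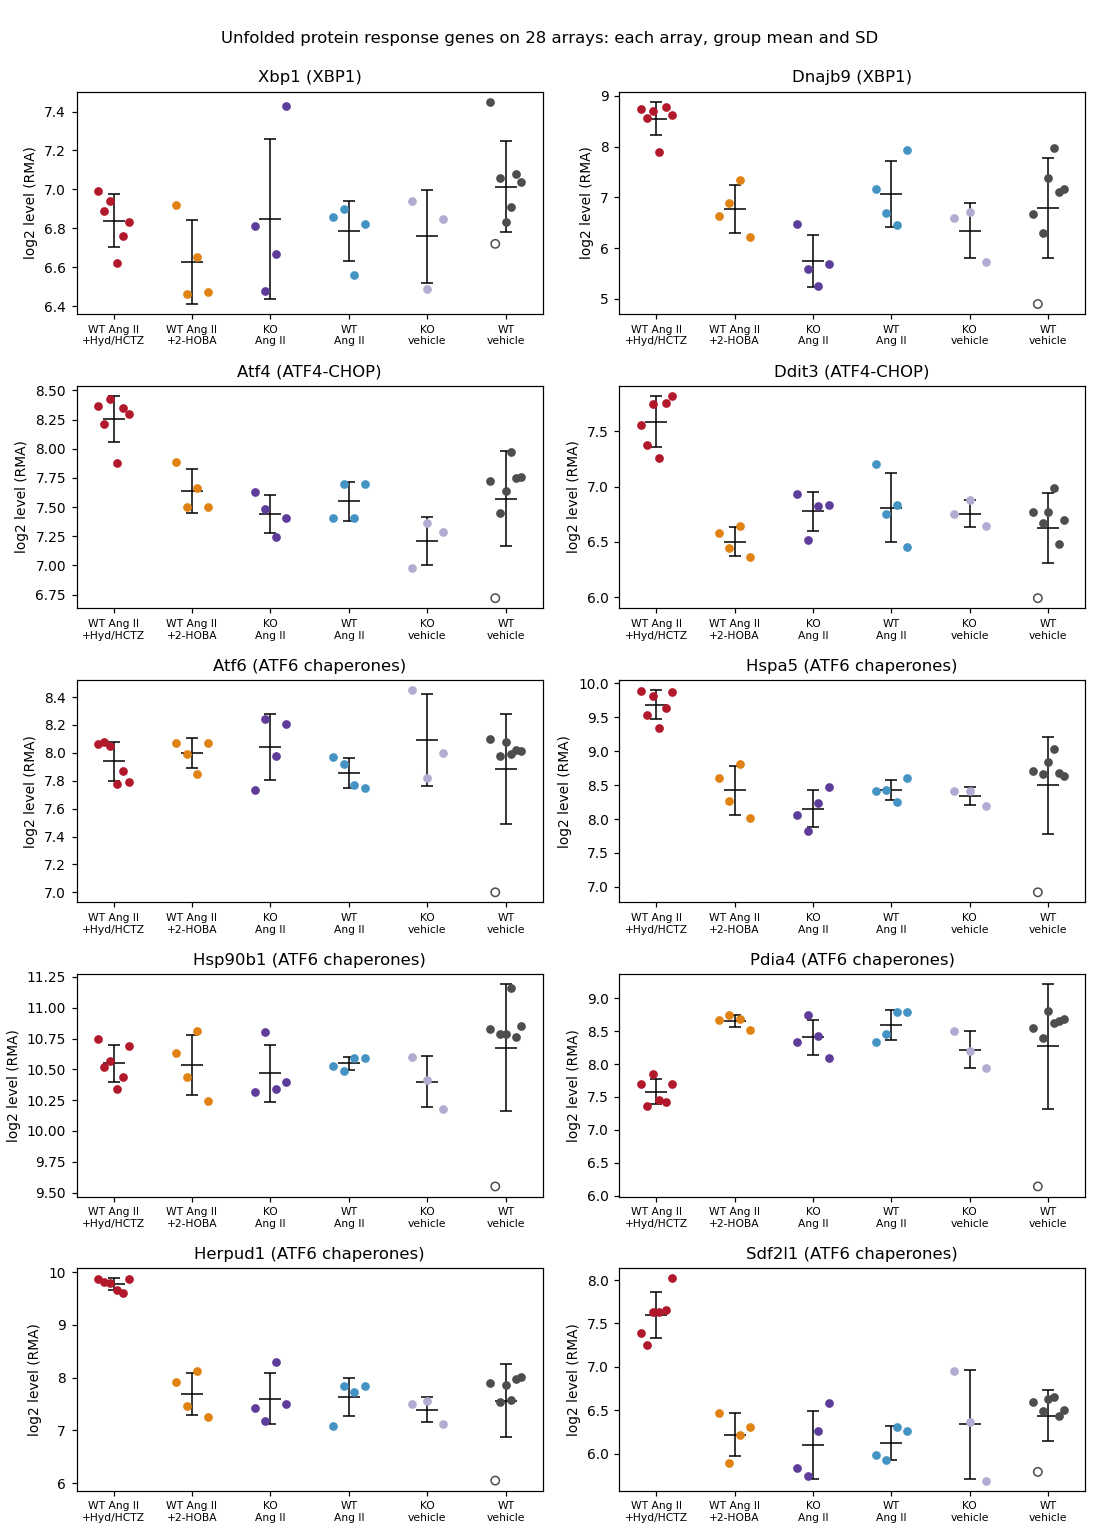
Log2 RMA level (y axis) of the 10 genes on each of 28 arrays, by group (x axis), with group mean and SD; the open circle is the array labelled wild-type vehicle replicate 2. Herpud1 lay at 9.60 to 9.87 on the 6 Hyd/HCTZ arrays and at or below 8.30 on the other 22, while Xbp1 and Atf6 overlapped in all groups.

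Of the 10 genes, 7 differed between Ang II with Hyd/HCTZ and Ang II alone (limma, Benjamini-Hochberg adjusted p below 0.05 over all tested genes): Herpud1, Dnajb9, Sdf2l1, Hspa5, Ddit3 and Atf4 were higher and Pdia4 was lower. Among all tested genes 52.7% were called, 40.8% higher and 11.9% lower, so the 7 of 10 stand against a background of more than 5 in 10. The median difference of the 10 was 0.74, beside 0.32 over all tested genes. The tested genes as a whole are not a background of like brightness. Each of the 10 was brighter on average than at least 67.1% of them. In 6 of the 10 genes the groups did not overlap, 5 higher and 1 lower, against 44.4% of tested genes in either direction (34.4% higher and 10% lower). Relative to the median of all genes 6 were called in the fit with all arrays, with Atf4 no longer among them (48.6% of tested genes, 23.7% higher and 25% lower). After quantile normalization 7 were called (40.9% of tested genes, 20.5% higher and 20.5% lower), 4 higher and 3 lower, with Atf4 and Ddit3 lost and Hsp90b1 and Atf6 called lower.

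Xbp1, the transcription factor that IRE1 activates by splicing, read between 6.62 and 6.99 with Hyd/HCTZ (median 6.86), against 6.86, 6.90, 6.56 and 6.82 with Ang II alone. The ranges overlapped almost wholly. Its difference of 0.05 (SE 0.166, 95% interval -0.29 to 0.39) did not pass (adjusted p = 0.799), and it was -0.26 relative to the median of all genes and -0.45 after quantile normalization, neither of which passed.

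Dnajb9, which encodes the co-chaperone ERdj4 and is a known target of XBP1, read between 7.90 and 8.78 with Hyd/HCTZ (median 8.67), against 7.16, 6.70, 6.45 and 7.93 with Ang II alone. The groups overlapped only through the lowest Hyd/HCTZ array, replicate 4 at 7.90, and the highest Ang II array, replicate 4 at 7.93. Dnajb9 was 2.82-fold higher (log2 difference 1.49, SE 0.384, adjusted p = 0.00191), 1.18 relative to the median of all genes and 0.90 after quantile normalization, both of which passed.

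Atf4, whose protein drives amino acid supply and antioxidant genes when PERK or another kinase of the integrated stress response is active, read between 7.88 and 8.43 with Hyd/HCTZ (median 8.32), against 7.41, 7.70, 7.41 and 7.70 with Ang II alone. The lowest Hyd/HCTZ array lay above the highest Ang II array. The difference of 0.70 (SE 0.178, adjusted p = 0.00172) depended on the scaling: it was 0.38 relative to the median of all genes (adjusted p = 0.0739) and 0.11 after quantile normalization (adjusted p = 0.53).

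Ddit3 encodes CHOP, a transcription factor linked to cell death under lasting stress. Its level ran from 7.26 to 7.82 with Hyd/HCTZ (median 7.66), against 7.20, 6.75, 6.83 and 6.45 with Ang II alone. The groups lay next to each other without overlap, with Ang II replicate 1 just below the lowest Hyd/HCTZ array. Ddit3 was 1.72-fold higher (log2 difference 0.78, SE 0.17, adjusted p = 0.000395), 0.46 relative to the median of all genes (adjusted p = 0.0261) and 0.22 after quantile normalization, where it did not pass (adjusted p = 0.256).

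Atf6, the sensor of the third branch, read between 7.78 and 8.08 with Hyd/HCTZ (median 7.96), against 7.97, 7.92, 7.77 and 7.75 with Ang II alone. The ranges overlapped. Its difference was 0.08 as deposited (SE 0.176, adjusted p = 0.71) and -0.24 relative to the median of all genes (adjusted p = 0.275), and it turned to a called fall of 0.51 after quantile normalization (adjusted p = 0.00592), so its direction depended on the scaling.

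Hspa5 encodes BiP, the main Hsp70 chaperone of the endoplasmic reticulum, which also binds the 3 sensors. Its level ran from 9.34 to 9.89 with Hyd/HCTZ (median 9.73), against 8.41, 8.43, 8.25 and 8.61 with Ang II alone. Every Hyd/HCTZ array was above every Ang II array. Hspa5 was 2.4-fold higher (log2 difference 1.26, SE 0.257, adjusted p = 0.000194), 0.94 relative to the median of all genes and 0.56 after quantile normalization (adjusted p = 0.0143).

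Hsp90b1 encodes GRP94, the Hsp90 chaperone of the same compartment, needed for folding Toll-like receptors and integrins. Its level ran from 10.34 to 10.75 with Hyd/HCTZ (median 10.54), against 10.53, 10.49, 10.59 and 10.59 with Ang II alone. The Ang II arrays lay inside the Hyd/HCTZ range. Its difference was 0.00 as deposited (SE 0.201, 95% interval -0.41 to 0.41, adjusted p = 0.999) and -0.32 relative to the median of all genes (adjusted p = 0.192), and it became a called fall of 0.55 after quantile normalization (adjusted p = 0.00565).

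Pdia4 encodes ERp72, a protein disulfide isomerase, and was the member that fell. Its level ran from 7.36 to 7.85 with Hyd/HCTZ (median 7.57), against 8.34, 8.45, 8.79 and 8.79 with Ang II alone. No Hyd/HCTZ array reached the lowest Ang II array. Pdia4 was 2.02-fold lower (log2 difference -1.02, SE 0.311, adjusted p = 0.00765), -1.33 relative to the median of all genes (adjusted p = 0.000908) and -1.60 after quantile normalization. A second Pdia4 probe set, too dim to pass the filter, averaged 3.29 ± 0.27 with Hyd/HCTZ (SD, n = 6) and 4.32 ± 0.43 with Ang II alone (SD, n = 4).

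Herpud1 encodes a membrane protein of the machinery that sends misfolded proteins out of the endoplasmic reticulum for degradation. Its level ran from 9.60 to 9.87 with Hyd/HCTZ (median 9.80), against 7.09, 7.85, 7.73 and 7.84 with Ang II alone. This was the widest separation among the 10 genes in this comparison. Herpud1 was 4.42-fold higher (log2 difference 2.14, SE 0.275, adjusted p = 3.81e-07), 1.82 relative to the median of all genes (adjusted p = 6.07e-06) and 1.46 after quantile normalization (adjusted p = 7.28e-06).

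Sdf2l1 encodes an endoplasmic reticulum protein that works with BiP and its co-chaperones. Its level ran from 7.25 to 8.02 with Hyd/HCTZ (median 7.63), against 5.99, 5.93, 6.31 and 6.26 with Ang II alone. The groups were far apart relative to their ranges. Sdf2l1 was 2.78-fold higher (log2 difference 1.47, SE 0.211, adjusted p = 1.87e-06), 1.16 relative to the median of all genes and 0.94 after quantile normalization (adjusted p = 0.000249).

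**Figure D2:**
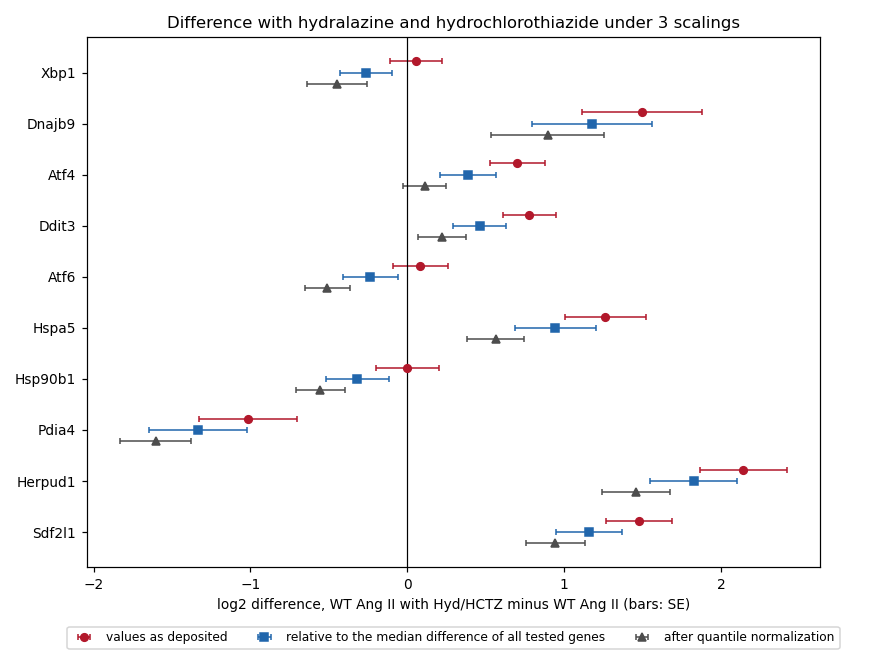
Log2 difference of each gene between Ang II with Hyd/HCTZ and Ang II alone (x axis; bars are SE) with values as deposited, relative to the median difference of all tested genes, and after quantile normalization. Herpud1, Sdf2l1, Dnajb9 and Hspa5 stayed above 0 and Pdia4 below 0 under all 3, while Atf6 (0.08, -0.24 and -0.51), Xbp1 (0.05, -0.26 and -0.45) and Hsp90b1 (0.00, -0.32 and -0.55) turned below 0.

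Differences between a pair of genes on the same array do not move with a shift of the whole array. They can move with a change in the spread of its values. Hspa5 minus Hsp90b1 was -0.86 ± 0.10 with Hyd/HCTZ (SD, n = 6), against -2.13 ± 0.15 with Ang II alone (SD, n = 4), with no overlap. Herpud1 minus Pdia4 was 2.19 ± 0.16 with Hyd/HCTZ (1.94 to 2.46), against -0.96 ± 0.27 with Ang II alone (-1.25 to -0.60), and -1.57 to -0.09 on the arrays of the other 4 groups. Within the XBP1 branch, Dnajb9 minus Xbp1 was 1.72 ± 0.24 with Hyd/HCTZ (1.28 to 2.02), against 0.28 ± 0.60 with Ang II alone (-0.20 to 1.11). Ddit3 minus Atf4 overlapped, at -0.67 ± 0.13 with Hyd/HCTZ (-0.83 to -0.48), against -0.74 ± 0.45 with Ang II alone (-1.25 to -0.21). These pairs show unequal change between genes of the first 3 pairs and say nothing of the level of 1 gene against another.

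The other genes of the 3 branches, from lists drawn up with earlier results of these data known, were read against all tested genes, of which 40.8% were called higher with Hyd/HCTZ than with Ang II and 11.9% lower as deposited, and 23.7% higher and 25% lower relative to the median of all genes. In the IRE1-XBP1 list 9 of 15 tested genes were called higher and none lower (median difference 0.69), and 4 were higher and 1 lower relative to the median of all genes, a share of rises near the 23.7% of all tested genes. The 3 rises with the smallest p were the translocon subunits Sec61b (1.56, adjusted p = 9.96e-06) and Sec61a1 (1.12, adjusted p = 0.000131) and the translocon-associated Ssr1 (1.04, adjusted p = 0.000904). The fall relative to the median was in Wfs1 (-0.41, adjusted p = 0.0375), which encodes the membrane protein wolframin. It is named after its value was seen.

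In the PERK-ATF4-CHOP list 10 of 14 tested genes were called higher and none lower (median difference 1.00), and 9 were higher relative to the median of all genes, beside 40.8% and 23.7% of all tested genes. Those with the smallest p were Chac1, a glutathione-degrading enzyme (1.64, adjusted p = 1.17e-07), Cebpg, a partner of ATF4 (1.14, adjusted p = 7.72e-07), and Slc3a2, the heavy chain of amino acid transporters (1.24, adjusted p = 7.71e-05). Relative to the median their differences were 1.32, 0.82 and 0.92, all of which passed. In the ATF6 and chaperone list 13 of 18 tested genes were called higher and none lower (median difference 0.63), and 5 were higher relative to the median, the last again near the 23.7% of all tested genes. They were led by Ppib, an endoplasmic reticulum prolyl isomerase (2.27, adjusted p = 1.14e-10), Derl2, a channel component of protein disposal (1.34, adjusted p = 1e-05), and Ostc, a subunit of the N-glycosylation complex (1.57, adjusted p = 1.89e-05).

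The sensors and regulators did not all move. Ern1, which encodes IRE1α, averaged 6.69 ± 0.17 with Hyd/HCTZ (SD, n = 6), against 5.92 ± 0.30 with Ang II alone (SD, n = 4), a difference of 0.77 (adjusted p = 0.00167) that did not pass relative to the median of all genes (0.45, adjusted p = 0.0555). Eif2ak3, which encodes PERK, averaged 6.31 ± 0.18 with Hyd/HCTZ, against 6.26 ± 0.13 with Ang II alone (difference 0.04, adjusted p = 0.836). Atf6b, the relative of ATF6, differed by 0.49 (adjusted p = 0.00379) as deposited and by 0.17 relative to the median (adjusted p = 0.308), and was -0.04 after quantile normalization. Mbtps1, the site-1 protease that cuts ATF6, differed by 0.09 (adjusted p = 0.725). Ppp1r15a, the phosphatase subunit GADD34 that ends the translation block, averaged 8.69 ± 0.15 with Hyd/HCTZ, against 7.56 ± 0.96 with Ang II alone (difference 1.12, adjusted p = 0.00801, and 0.81 relative to the median, adjusted p = 0.0548). Trib3, a pseudokinase induced by ATF4 and CHOP, was too dim to test, at 3.57 to 4.04 with Hyd/HCTZ and 3.85 to 4.57 over the other groups.

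**Figure D3:**
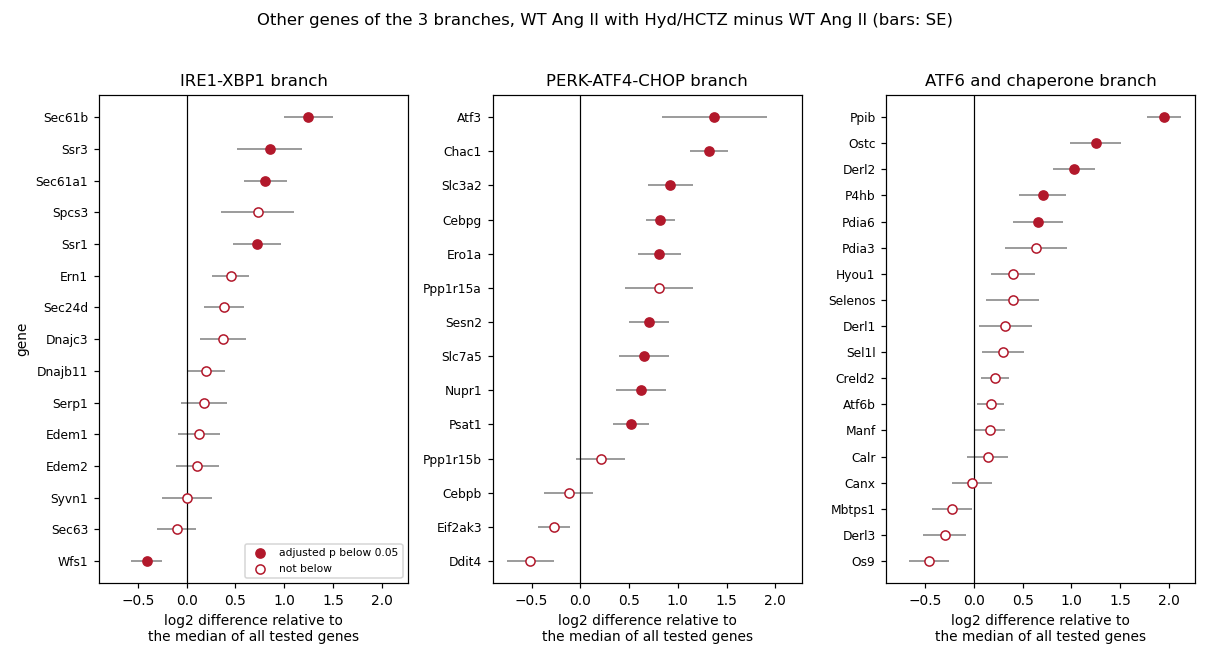
Log2 difference between Ang II with Hyd/HCTZ and Ang II alone, relative to the median difference of all tested genes (x axis; bars are SE), for the other tested genes of the 3 branches (y axis); filled points passed at an adjusted p below 0.05. Passing points lie above 0 in 4 of 15, 9 of 14 and 5 of 18 genes, and below 0 in Wfs1 only, while 23.7% of all tested genes passed above 0 and 25% below.

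Markers of cell types also differed between these groups. The counts of called markers stand beside 40.8% of all tested genes called higher and 11.9% lower. The mean of 7 B cell markers was 5.64 to 6.88 with Hyd/HCTZ, against 8.09 to 9.22 with Ang II alone, with 7 of 7 called lower. The mean of 10 dendritic cell markers was 8.89 to 9.11 with Hyd/HCTZ, against at most 7.95 with Ang II alone, with 9 of 10 called higher. Red pulp macrophage markers were higher in 6 of 6 (7.56 to 9.01 with Hyd/HCTZ, against at least 6.47, the groups not overlapping) and erythroid markers lower in 5 of 5 (4.04 to 4.55 with Hyd/HCTZ, against 5.17 to 6.93). Of the 6 plasmacytoid dendritic cell markers 4 were higher (7.53 to 8.04 with Hyd/HCTZ, against 6.57 to 7.32). Neutrophil markers were lower in 3 of 5 tested (4.70 to 6.05 with Hyd/HCTZ, against 5.83 to 7.15), T cell markers in 2 of 4 (at most 5.02, against at least 5.10) and stroma markers in 3 of 3 (4.10 to 4.72, against 4.89 to 5.15). These 3 ranges include markers too dim to test. With Hyd/HCTZ all 5 stroma markers averaged below 5. So did the erythroid Alas2, Epb42, Rhd and Hemgn, the neutrophil Ngp, Ltf, Mpo and Elane, and the T cell Cd3g and Trat1. After the median of all genes was taken off, 7 of 10 dendritic cell markers and 4 of 6 red pulp markers were still called higher. All tested B cell and erythroid markers were still called lower. Of all tested genes, 23.7% were then called higher and 25% lower. Plasma cells are known for high levels of these same chaperones; the mean of their 6 markers was 5.43 to 6.03 with Hyd/HCTZ, against 5.40 to 5.91 with Ang II alone, with 2 of 4 tested markers higher and 1 lower, and Sdc1 and Tnfrsf17 averaged below 5 in every group. The part of these shifts in cell type markers in the differences of the 10 genes was not tested.

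Against Ang II with 2-HOBA, the same 6 genes were higher with Hyd/HCTZ and Pdia4 was lower (7 of 10 called, beside 45.7% of tested genes, 36% higher and 9.72% lower). Groups did not overlap in 6 of 10 genes, 5 higher and 1 lower, beside 46.1% of tested genes (35% higher and 11.1% lower). Herpud1 ran from 9.60 to 9.87 with Hyd/HCTZ, against 7.91, 7.46, 8.13 and 7.26 with 2-HOBA (log2 difference 2.08, SE 0.275, adjusted p = 6.86e-07). Ddit3 ran from 7.26 to 7.82 with Hyd/HCTZ, against 6.58, 6.44, 6.64 and 6.36 with 2-HOBA (1.09, SE 0.17, adjusted p = 7.65e-06). Pdia4 ran from 7.36 to 7.85 with Hyd/HCTZ, against 8.67, 8.74, 8.69 and 8.52 with 2-HOBA (-1.08, SE 0.311, adjusted p = 0.00567). None of these 3 genes overlapped between the groups, and each call remained relative to the median of all genes and after quantile normalization. The other called differences were 1.78 for Dnajb9, 1.38 for Sdf2l1, 1.26 for Hspa5 and 0.62 for Atf4, of which Atf4 did not pass relative to the median (0.36, adjusted p = 0.0959) or after quantile normalization (0.12, adjusted p = 0.494). Relative to the median 5 were called higher and 1 lower, beside 44.3% of tested genes (23.2% higher, 21.1% lower), and after quantile normalization 5 higher and 3 lower, beside 36.2% (18.5% higher, 17.7% lower). Xbp1 (0.21), Hsp90b1 (0.02) and Atf6 (-0.06) did not pass as deposited, with Hsp90b1 (-0.47) and Atf6 (-0.53) called lower after quantile normalization. Of the other branch genes, 7 of 15 of the IRE1-XBP1 list, 10 of 14 of the PERK-ATF4-CHOP list and 11 of 18 of the ATF6 list were called higher, and none lower, as deposited. The smallest p-values belonged to Ern1 (1.09), Sec61a1 (1.12) and Sec24d (0.98), a COPII coat subunit, in the first list, to Chac1 (1.76), Cebpg (1.26) and Sesn2 (1.43), a stress-induced regulator of mTORC1, in the second, and to Ppib (2.37), Atf6b (0.73) and Derl2 (1.09) in the third. With the median of all genes taken off, 5, 10 and 8 were higher, where 36% (as deposited) and 23.2% of all tested genes were. Cell type markers moved here too: the B cell mean was 5.64 to 6.88 with Hyd/HCTZ, against 8.94 to 9.54 with 2-HOBA (7 of 7 lower), the dendritic cell mean 8.89 to 9.11 with Hyd/HCTZ, against 7.41 to 7.93 (9 of 10 higher), and the red pulp mean 7.56 to 9.01 with Hyd/HCTZ, against 5.86 to 7.40 (6 of 6 higher). Of the tested markers, 1 of 5 erythroid, 3 of 4 T cell, 2 of 3 stroma and 0 of 5 neutrophil markers were lower. Of 6 plasmacytoid markers 3 were higher and 1 lower, and 2 of 4 plasma cell markers were higher. With 36% of all tested genes higher and 9.72% lower, the plasmacytoid and plasma cell rises were not far from that share. The part of the cell type markers in the result was not tested. The comparison shares its Hyd/HCTZ arrays with the preceding one, so they are not independent.

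Against vehicle, the same 6 genes were higher with Hyd/HCTZ and Pdia4 was lower (7 of 10 called, beside 56.6% of tested genes, 43.4% higher and 13.2% lower). Groups did not overlap in 4 genes, Ddit3, Herpud1, Hspa5 and Sdf2l1, all higher (beside 28.6% of tested genes in either direction, 25% higher). Herpud1 ran from 9.60 to 9.87 with Hyd/HCTZ, against 6.05 to 8.01 with vehicle (median 7.87). Its difference was 2.21 (SE 0.237, adjusted p = 1.15e-08), and 1.96 without the array labelled vehicle replicate 2. Hspa5 ran from 9.34 to 9.89 with Hyd/HCTZ, against 6.92 to 9.03 with vehicle (median 8.68), a difference of 1.19 (SE 0.222, adjusted p = 5.32e-05) and of 0.93 without that array. Pdia4 ran from 7.36 to 7.85 with Hyd/HCTZ, against 6.14 to 8.81 with vehicle (median 8.63). The vehicle array at 6.14 is the one that stood apart, and the other 6 lay at 8.40 or above, so the groups overlapped through it alone. The Pdia4 difference was -0.69 (SE 0.268, adjusted p = 0.0297) with that array and -1.04 (adjusted p = 9.81e-08) without it. The call was lost with a common array median (adjusted p = 0.0587), with only the compared arrays (adjusted p = 0.101), with the replicate number as a block (adjusted p = 0.0617) and in 7 of the 13 fits that left out 1 array, those without Hyd/HCTZ replicate 2 or 5 or vehicle replicate 1, 4, 5, 6 or 7 (highest adjusted p = 0.0644). Hsp90b1 was -0.13 (adjusted p = 0.546) with it and a called fall of 0.31 (adjusted p = 0.0253) without it. Dnajb9 (1.77), Sdf2l1 (1.16), Ddit3 (0.96) and Atf4 (0.68) were 1.45, 1.05, 0.86 and 0.54 without it and passed both ways, but Atf4 was 0.10 after quantile normalization (adjusted p = 0.486). Relative to the median of all genes, Hsp90b1 (-0.44, adjusted p = 0.0348) and Xbp1 (-0.49, adjusted p = 0.00561) were called lower, for 6 higher and 3 lower in all, beside 52.3% of tested genes (25.3% higher, 27% lower). After quantile normalization 5 were higher and 4 lower, beside 46.6% (23.5% higher, 23.1% lower). Of the other branch genes, 11 of 15, 11 of 14 and 14 of 18 were called higher in the IRE1-XBP1, PERK-ATF4-CHOP and ATF6 lists, and none lower, as deposited, with 5, 10 and 5 higher relative to the median of all genes, where 43.4% and 25.3% of all tested genes were. Without the vehicle array that stood apart they were 11, 10 and 13, with 1 gene of the second list lower. The shares of all tested genes just given are from fits with that array, and none is given for the fit without it. The smallest p-values belonged to Sec61b (1.54), Ern1 (1.13) and Sec61a1 (1.25), to Chac1 (1.76), Cebpg (1.28) and Slc3a2 (1.41), and to Ppib (2.29), Derl2 (1.14) and Ostc (1.39). The B cell mean was 5.64 to 6.88 with Hyd/HCTZ, against 6.83 to 9.12 with vehicle (7 of 7 lower), where 6.83 is the array that stood apart, and the dendritic cell mean was 8.89 to 9.11 with Hyd/HCTZ, against 7.18 to 8.15 with vehicle (9 of 10 higher). Of the tested markers, 3 of 5 erythroid, 3 of 4 T cell, 3 of 3 stroma and 2 of 5 neutrophil markers were lower. Higher were 3 of 6 red pulp and 4 of 6 plasmacytoid markers, and 2 of 4 plasma cell markers were higher and 1 lower. With 43.4% of all tested genes higher and 13.2% lower, the red pulp and plasma cell rises were near that share. The part of the cell type markers in the result was not tested.

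None of the 10 genes was called by limma in the comparisons without Hyd/HCTZ as fitted here (with array weights, 2 were called between knockout and wild type with vehicle), in which the arrays of Ang II alone and of vehicle are shared. For Ang II against vehicle, and for 2-HOBA against Ang II or vehicle, 0% of all tested genes were called as well. At an unadjusted p below 0.05 stood 266, 379 and 602 genes. Among the 10 genes that was so for 1, Xbp1 with 2-HOBA against vehicle. Its levels were 6.92, 6.46, 6.65 and 6.47 with 2-HOBA, against 6.72 to 7.45 with vehicle (median 7.04). Of the 4 arrays with 2-HOBA, 3 lay below the vehicle range. The difference was -0.39 (SE 0.162, unadjusted p = 0.0233, adjusted p = 0.834), -0.44 without the array labelled vehicle replicate 2 and -0.34 within the array set that holds all 2-HOBA arrays. Without that vehicle array, Hsp90b1 (-0.33) and Hspa5 (-0.34) also had an unadjusted p below 0.05 for 2-HOBA against vehicle. So did Hsp90b1 (-0.31), Hspa5 (-0.34) and Sdf2l1 (-0.43) for Ang II against vehicle. Relative to the median of all genes these Ang II differences were -0.23, -0.25 and -0.34, none at an unadjusted p below 0.05. Hsp90b1 (-0.31) and Hspa5 (-0.31) with 2-HOBA against vehicle stayed below it. None passed after adjustment. The counts of 266, 379 and 602 genes are from the fit with all arrays and are no background for the fit without that array. For Ang II against vehicle, the 95% intervals were -0.48 to 0.61 for Herpud1, -0.58 to 0.44 for Hspa5, -0.15 to 0.52 for Ddit3 and -0.56 to 0.10 for Xbp1. For 2-HOBA against Ang II they were -0.55 to 0.68 for Herpud1, -0.58 to 0.57 for Hspa5, -0.69 to 0.07 for Ddit3 and -0.53 to 0.21 for Xbp1. These intervals, from the fit with all arrays, bound the differences without showing that the groups were alike. Without the vehicle array that stood apart, Hspa5 for Ang II against vehicle was -0.34 with a smaller SE of 0.152, for which no interval is given.

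In the NOX2 knockout, Ang II against vehicle called 0% of tested genes (296 at an unadjusted p below 0.05) and none of the 10. Hspa5 read 8.06, 7.83, 8.23 and 8.47 with Ang II, against 8.42, 8.41 and 8.19 with vehicle. Herpud1 read 7.42, 7.18, 8.30 and 7.51 with Ang II, against 7.51, 7.55 and 7.12 with vehicle. Both genes overlapped, with differences of -0.19 (SE 0.304) and 0.21 (SE 0.325). The test of whether the Ang II difference itself depended on NOX2 also called none of the 10 (0% of tested genes, 257 at an unadjusted p below 0.05), with values from -0.87 (SE 0.587) for Dnajb9 to 0.32 (SE 0.255) for Xbp1.

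Between knockout and wild type under Ang II, 0.0478% of tested genes were called and none of the 10. Dnajb9 had the smallest p among them. It read 6.47, 5.59, 5.26 and 5.68 in knockout cells with Ang II, against 7.16, 6.70, 6.45 and 7.93 in wild-type cells with Ang II. Only knockout replicate 1 reached the wild-type range. The difference was -1.31 (SE 0.42, unadjusted p = 0.00406, adjusted p = 0.398). All knockout arrays lay in 1 of the 3 array sets with 2 of the 4 wild-type Ang II arrays, and the difference was -1.18 within that set and -0.80 with the set as a block, neither of which passed. Among the other branch genes the smallest p belonged to Ddit4, a stress-induced inhibitor of mTORC1 (1.21, SE 0.267, adjusted p = 0.0827), and to Nupr1, a stress-induced chromatin factor (1.12, SE 0.28, adjusted p = 0.204), and none was called.

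Between knockout and wild type with vehicle, 0.00957% of tested genes were called and none of the 10. Atf4 read 6.98, 7.36 and 7.29 in knockout cells, against 6.72 to 7.97 in wild-type cells (median 7.72). The wild-type array at 6.72 is the one that stood apart, and the other 6 lay at 7.45 or above. The Atf4 difference was -0.36 (SE 0.19, adjusted p = 0.825) with that array and -0.50 (adjusted p = 0.0878) without it. Without it, Dnajb9 (-0.75), Atf4 (-0.50), Hsp90b1 (-0.46), Hspa5 (-0.42) and Pdia4 (-0.41) were lower in the knockout at an unadjusted p below 0.05. Their limma adjusted p ran from 0.0878 for Atf4 to 0.234 for Dnajb9, so none passed. The fit called 0.651% of all tested genes at an adjusted p below 0.05. That share is no background for genes picked at an unadjusted p, for which no share of all tested genes is given here. Relative to the median of all genes, also without that array, the differences were -0.66 for Dnajb9, -0.41 for Atf4, -0.37 for Hsp90b1, -0.32 for Hspa5 and -0.31 for Pdia4. Only Atf4 and Hsp90b1 then kept an unadjusted limma p below 0.05. With array weights and all arrays, Atf4 (-0.49, adjusted p = 0.0166) and Hsp90b1 (-0.42, adjusted p = 0.0417) were called lower in the knockout, in a fit that called 13.7% of all tested genes. Of the 6 wild-type vehicle arrays left, 4 were in an array set that held no knockout array. Within the set that held all knockout arrays, and without the array that stood apart, the same differences were -0.14 for Dnajb9, -0.37 for Atf4, -0.41 for Hsp90b1, -0.34 for Hspa5 and -0.26 for Pdia4, and none of the 10 genes had an unadjusted p below 0.05.

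**Figure D4:**
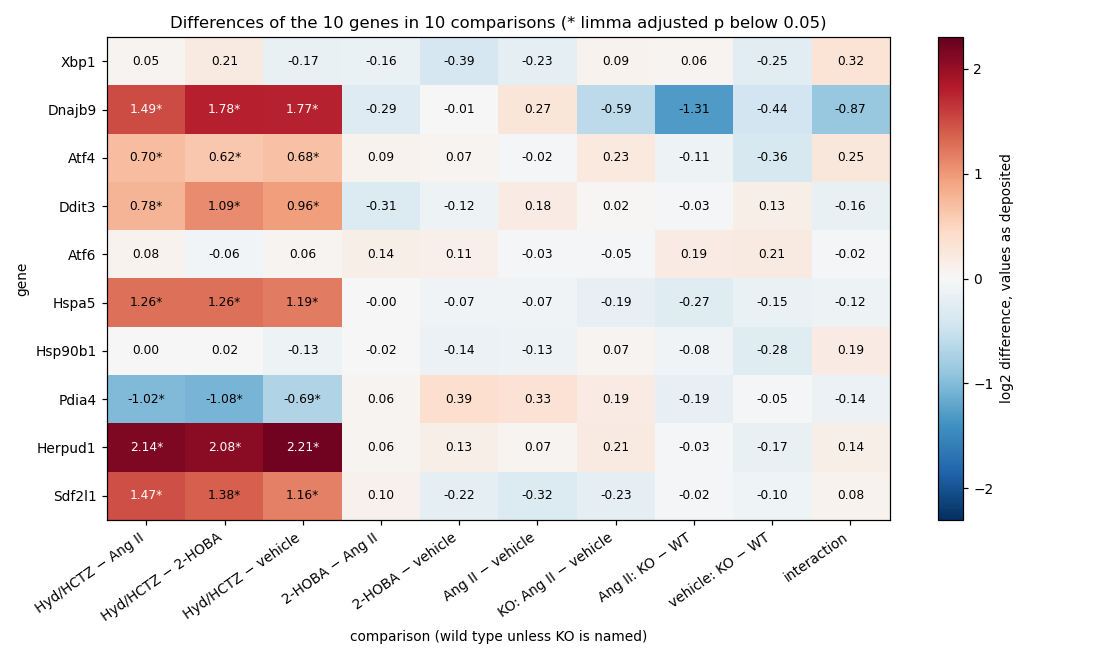
Log2 differences of the 10 genes (rows) in the 10 comparisons (columns), with values as deposited; red is higher and blue lower in the first-named group, and an asterisk marks a limma adjusted p below 0.05. Calls stand in the 3 comparisons of Hyd/HCTZ alone, 7 genes in each, and the largest uncalled value is -1.31 for Dnajb9.

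Over the 6 groups, Hyd/HCTZ had the highest mean of Herpud1, Dnajb9, Sdf2l1, Hspa5, Ddit3 and Atf4 and the lowest of Pdia4. Among the other 5 groups the means of a gene spanned 0.24 for Atf6, 0.28 for Hsp90b1, 0.30 for Herpud1, 0.31 for Ddit3, 0.34 for Sdf2l1, 0.35 for Hspa5, 0.39 for Xbp1, 0.43 for Atf4, 0.44 for Pdia4 and 1.31 for Dnajb9. In order, Xbp1 was highest with vehicle in wild type, followed by knockout Ang II, Hyd/HCTZ, wild-type Ang II, knockout vehicle and 2-HOBA, and no step in that order exceeded the spread between arrays. Dnajb9 followed Hyd/HCTZ with wild-type Ang II, wild-type vehicle, 2-HOBA, knockout vehicle and knockout Ang II, and neighbours in this order overlapped throughout.

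The genes most like 4 of the 10 over the 28 arrays, by the correlation of deviations from group means, are given as a description. For Xbp1 they were Usp31 (r = 0.78), Tnfrsf11a (0.75) and Kif18b (0.73). For Hspa5 they were Atp13a3 (0.92), Sgms1 (0.91) and Slc38a2 (0.91), for Ddit3 Rab7 (0.81), Prpsap1 (0.78) and Polk (0.78), and for Herpud1 Txndc11 (0.90), Trappc1 (0.89) and Ddx60 (0.87). The array labelled wild-type vehicle replicate 2 carried part of this for Hspa5, Ddit3 and Herpud1, but not for Xbp1. Over the other 27 arrays the values were 0.76, 0.76 and 0.76 for Xbp1 and 0.64, 0.67 and 0.61 for Hspa5. They were 0.71, 0.64 and 0.63 for Ddit3, and 0.74, 0.71 and 0.67 for Herpud1. Between members, Hspa5 and Herpud1 had r = 0.82 over 28 arrays and 0.49 over 27, and Hspa5 and Pdia4 0.82 and 0.13.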

How the data were processed

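The values are log2 RMA levels deposited by the authors for 35556 probe sets on 28 arrays (lowest 0.90, highest 14.34). RMA and Partek 6.6 are named in the submitters' processing notes; the sources used here give no settings for either. The platform annotation gave 1 symbol to 21789 probe sets, several to 1621 and none to 12146; 21698 matched RefSeq by identifier, and 0 symbols changed. The probe set with the highest mean stood for each of 999 genes with several.

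A gene was tested if 3 or more arrays read above 5 (10452 of 19938). Group means of the 6 groups were fitted over all 28 arrays with limma 3.58.1 in R 4.3.3 (lmFit, eBayes, two-sided, Benjamini-Hochberg over all tested genes, threshold 0.05). The number of arrays limits the precision. The labels call the samples biological replicates. The procedure was tested on simulated data.

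Named were all 10 genes, the sensors and regulators of each branch, in comparisons with a called member up to 3 rises and 3 falls with the smallest p in each branch list, and the 3 genes most correlated with Xbp1, Hspa5, Ddit3 and Herpud1. The members and lists were chosen with earlier results of these data known. Unannotated probe sets treated as controls (6612) gave the array sets: their first component held 27.7% of the variance, with 12 arrays from -61.05 to -19.27, 10 from -5.91 to 17.81 and 6 from 48.24 to 58.68. Alternatives covered scaling, filter, array weights, array sets, a replicate block and leaving out each array; 3 that leave out wild-type vehicle replicate 2 and also change the set or the median were chosen after seeing the data. Whether equal replicate numbers pair samples was checked: of 57 same-numbered pairs 10 had a correlation of deviations above 0.1, so they were taken to share only a number. Promoters are those of RefSeq (GRCm38.p6).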

Additional observations from a re-analysis of the deposited data

Results flagged for a closer look

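In groups of 4 to 10 arrays, 50 sets of values of the 10 genes were examined for 1 array far from the others, and 10 had one; chance gives about 1 in 20. Of the 10, 7 were the array labelled wild-type vehicle replicate 2, which read lowest of its group in Pdia4 (6.14, next 8.40), Hspa5 (6.915, next 8.644), Herpud1 (6.047, next 7.54), Hsp90b1 (9.546, next 10.76), Atf6 (6.996, next 7.982), Atf4 (6.723, next 7.451) and Sdf2l1 (5.788, next 6.433). The others were Dnajb9 on Hyd/HCTZ replicate 4 (lowest at 7.901, next 8.558), Hsp90b1 on knockout Ang II replicate 2 (highest at 10.8, next 10.4) and Herpud1 on wild-type Ang II replicate 1 (lowest at 7.093, next 7.728).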

How the results depend on the processing

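Over the alternatives, 6 to 8 of the 10 genes were called for Hyd/HCTZ against Ang II (beside 40.9% to 64.7% of tested genes), 6 to 8 against 2-HOBA (33.5% to 64%) and 6 to 10 against vehicle (46.6% to 67.9%, and 55.1% in the fit that called all 10, relative to the median and leaving out wild-type vehicle replicate 2). The rises of Herpud1, Sdf2l1, Hspa5 and Dnajb9 and the fall of Pdia4 against Ang II were called in each of the 10 fits that left out 1 array, between 1.96 and 2.22, 1.39 and 1.54, 1.20 and 1.33, 1.29 and 1.79, and -1.10 and -0.95. Quantile normalization turned Atf6 to -0.51 and Hsp90b1 to -0.55 against Ang II, Hsp90b1 to -0.47 against 2-HOBA and Atf6 to -0.52 against vehicle. Relative to the median and without that vehicle array, Atf6 was -0.30 against vehicle and Hsp90b1 -0.32 against Ang II. The cause was not tested. Array weights called 2 genes between knockout and wild type with vehicle, Atf4 (-0.49) and Hsp90b1 (-0.42), where 0 were called as reported, and 13.7% of tested genes.

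Pdia4 against vehicle lost its call with a common array median (-0.62, adjusted p = 0.0587), with only the compared arrays (adjusted p = 0.101) and when any of Hyd/HCTZ replicates 2 and 5 or vehicle replicates 1, 4, 5, 6 and 7 was left out; over the 13 such fits it ran from -1.04 to -0.60, with adjusted p from 9.81e-08 to 0.0644. With the replicate number as a block, the calls with Hyd/HCTZ were those reported above, except that Pdia4 against vehicle (-0.62, adjusted p = 0.0617) did not pass. This block is 1 of the alternatives for which the ranges of called shares of all tested genes are given above. Of 114 checks, 18 found a sample most correlated with one of its own number.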
